A study of Mus musculus with 4 samples.

Results

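The transcripts of 10 heat shock chaperone genes were followed in blood monocytes: Hspa1a, Hspa1b, Hspa8, Hspa5, Hsp90aa1, Hsp90ab1, Hsph1, Hspd1, Hspe1 and Dnajb1. They were listed by symbol, with earlier results of these data known, and each matched the gene column of the deposited expression table, which holds 23995 gene symbols. Ly6Clo monocytes, which patrol the vessel wall, and Ly6Chi monocytes, the classical inflammatory subset, had been sorted by flow cytometry from the blood of control and RBP-J-deficient mice, and RNA of each of the 4 groups was sequenced as 1 library. RBP-J is the DNA-binding factor through which Notch receptors act on their target genes.

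The RBP-J-deficient mice were Rbpj fl/fl Lyz2 cre/cre. The control mice were Rbpj+/+ Lyz2 cre/cre in the methods of the study and carry the genotype label Lyz2-Cre beside titles that read WT. All groups therefore shared the Lyz2-Cre allele, and they were untreated. Lyz2-Cre is active in neutrophils and macrophages as well as monocytes, so the deletion was not limited to the sorted cells. The mice of the study were between 7 and 12 weeks old, and whether cells of several mice were pooled for a library is not given in the sources used here. With 1 library per group, no difference below has a replicate check, and no test was made.

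Chaperones bind unfolded segments of other proteins, keep them from clumping and release them to fold. HSP70 proteins do this in cycles of ATP hydrolysis that J-domain proteins such as DNAJB1 start and nucleotide exchange factors such as HSPH1 end, while HSP90 acts late on kinases, receptors and other clients, and HSP60 with its lid HSP10 encloses proteins in the mitochondrial matrix. Some of these genes are expressed at a steady level in every cell, whereas others are switched on within minutes by heat, by damaged protein or by rough handling of tissue, mainly through heat shock factor 1 (HSF1) at heat shock elements in their promoters. HSPA5 serves the endoplasmic reticulum (ER) and is induced by the unfolded protein response instead.

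Promoter stretches that match the elements of these modes of control are shown first. Whether they bear on the levels of the members was not tested. RefSeq promoter windows of GRCm38.p6, each from 250 bases before to 50 bases after an annotated start, were matched for 7 of the 10 members, and Hspa8, Hsp90aa1 and Hsp90ab1 had no window. Capitals mark heat shock element matches, GAANNTTC or TTCNNGAA, in all lines except that of Hspa5, where they mark the ER stress element (CCAAT, 9 bases of any kind, then CCACG), and 30 bases are given on either side where they lie before the start. The Hspa1a stretch is chr17:34972223-34972290 on the minus strand, and that of Hspa1b is chr17:34959305-34959372 on the minus strand. The Hsph1 stretch is chr5:149636332-149636399 on the minus strand, the Hspe1 stretch chr1:55088029-55088106 on the plus strand and the Hspa5 stretch chr2:34771995-34772073 on the plus strand.
Hspa1a: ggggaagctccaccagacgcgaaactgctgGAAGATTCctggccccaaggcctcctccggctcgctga
Hspa1b: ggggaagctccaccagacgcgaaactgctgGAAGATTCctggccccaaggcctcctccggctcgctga
Hsph1: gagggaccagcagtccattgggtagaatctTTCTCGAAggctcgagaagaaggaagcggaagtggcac
Hspe1: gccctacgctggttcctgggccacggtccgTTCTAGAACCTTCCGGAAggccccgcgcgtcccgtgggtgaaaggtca
Hspa5: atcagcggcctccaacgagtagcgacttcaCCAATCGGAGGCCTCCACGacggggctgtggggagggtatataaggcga

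The Hspa1a and Hspa1b stretches were identical over 68 bases, with the match ending 96 bases before each start. Their whole windows of 300 bases differed at 4 positions, C44T, T47C, T249G and C276T, counted from 1 at the 5′ end with the Hspa1a base first. Hspe1 and Hspd1 lie next to each other on opposite strands, the second Hspd1 window shared 285 bases with the Hspe1 window, and the marked match therefore belongs to both. That match ended 71 bases before the Hspe1 start and 126 bases before the second Hspd1 start. In Hspa5 the ER stress element, which contains a CCAAT box, ended 46 bases before the start.

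Either 8-letter heat shock pattern, searched on both strands, was present in 5 of the 7 members with a window (Hspa1a, Hspa1b, Hsph1, Hspd1 and Hspe1). That was 6 of the 10 windows of the members, beside 15.1% of all 32851 windows. These windows are not independent, given the sequence shared by Hspa1a with Hspa1b and by Hspd1 with Hspe1. A run of 3 units, in which both patterns overlap by their TTC or GAA in either order, was present in Hsph1, Hspd1 and Hspe1. That was 4 of 10 member windows, beside 0.603% of all windows, and the Hsph1 run lay after the start. The ER stress element was present in Hspa5, 1 of 10 member windows, and in 0.119% of all windows. CCAAT alone was present in 6 of the 7 members, 7 of 10 member windows, and in 37.4% of all windows. TGGGAA, the core letters bound by RBP-J, was present in 0 of the 7 members and in 25.6% of all windows. These matches describe letters in a window, not bound sites.

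The depth of the libraries is unknown, since only FPKM (fragments counted on a gene, divided by transcript length and by the mapped fragments of the library) was used. FPKM summed to between 711533 and 885648 per library, with the RBP-J-deficient Ly6Clo library highest, and between 8985 and 9394 genes had an FPKM of at least 1. In all, 10240 genes reached this level in at least 1 library and are called expressed genes below. Rbpj was 8.30 in control against 2.43 in RBP-J-deficient Ly6Clo monocytes, and 14.4 and 2.85 in Ly6Chi monocytes, so that it was lower in both libraries labelled as deficient. The summed FPKM of 5 monocyte markers was between 1703 and 2533, and that of 5 Ly6Chi markers was 74.4 and 571.3 in the control and RBP-J-deficient Ly6Clo libraries, of which Ccr2 made up 59.2 and 473.7, against 3482 and 2674 in the Ly6Chi libraries. The sum of 6 Ly6Clo markers was 2442 and 1660 in Ly6Clo against 527.3 and 767.7 in Ly6Chi libraries, in the same order of genotypes. In the RBP-J-deficient Ly6Clo library most of this sum was Cd36 at 944.7 and Treml4 at 513.0. Within RBP-J-deficient monocytes Cd36, Treml4 and Spn were higher in Ly6Clo than in Ly6Chi. Nr4a1, Itgal and Ace were lower, at 65.6, 74.2 and 17.7 in Ly6Clo against 182.5, 83.6 and 24.7 in Ly6Chi. T cell and NK cell sums, over 5 markers each, lay between 0.0748 and 3.33. In bulk samples such as these, fewer cells of a type and less RNA per cell cannot be told apart.

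All 10 chaperones were expressed genes by this measure, and together they took 0.397% of the summed FPKM in control Ly6Clo, 0.447% in control Ly6Chi, 0.326% in RBP-J-deficient Ly6Clo and 0.380% in RBP-J-deficient Ly6Chi monocytes. Most of this was Hspa8, which encodes the constitutive HSP70 of the cytosol and ranked 41 by mean FPKM among expressed genes. Its lowest level over the 4 libraries, 1606, lay above the highest of any other member, 512.4. Hspa5 (279.0 to 463.1) and Hsp90ab1 (206.6 to 512.4) followed with overlapping ranges, and Hsp90aa1 (80.6 to 263.8) overlapped both Hsp90ab1 and Hspe1 (71.0 to 120.5). Hspd1 (54.2 to 65.7) and Dnajb1 (45.3 to 67.6) also overlapped each other. At the low end, Hsph1 ran from 9.69 to 20.4, Hspa1a, which overlapped it, from 2.89 to 13.8 and Hspa1b from 0.294 to 1.98. By mean FPKM the stress-inducible HSP70 genes Hspa1a and Hspa1b ranked 5242 and 9130 of 10240, far below the constitutive form.

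**Figure D1:**
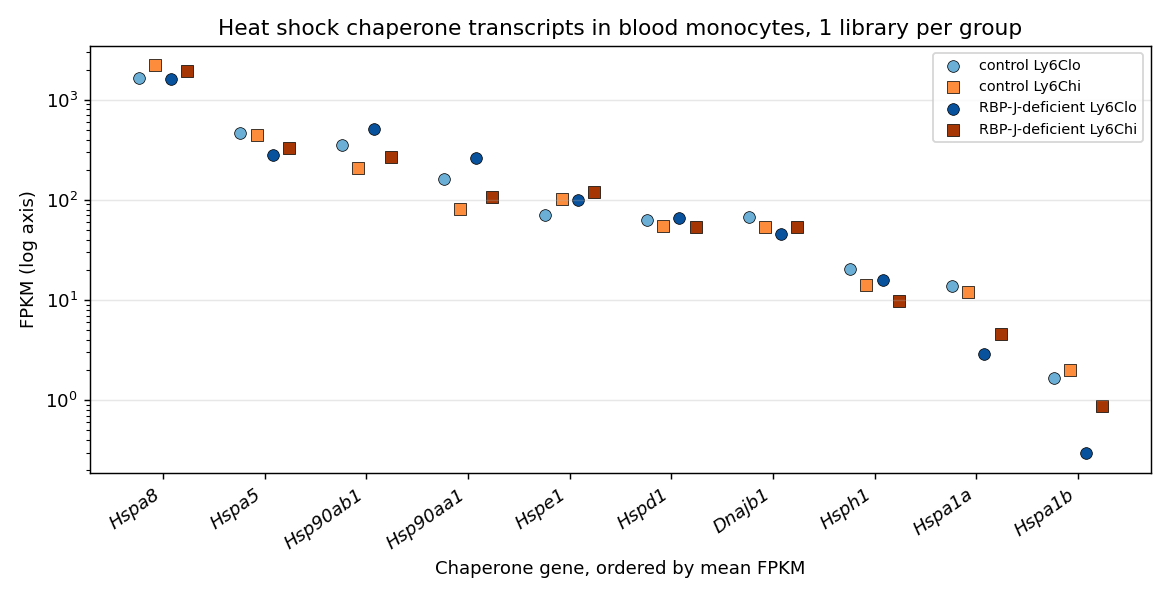
FPKM on a log axis of each chaperone gene, ordered by mean FPKM, with 1 point for each of the 4 libraries (circles Ly6Clo, squares Ly6Chi, lighter control, darker RBP-J-deficient). Hspa8 lies at 1606 or higher in all libraries, and Hspa1a and Hspa1b are lowest in the RBP-J-deficient libraries, at 2.89 and 4.62 and at 0.294 and 0.877.

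The first comparison was that of RBP-J-deficient with control monocytes within each subset. In RBP-J-deficient monocytes of both subsets, the inducible HSP70 genes Hspa1a and Hspa1b and the ER chaperone gene Hspa5 were lower, and both HSP90 genes were higher. The constitutive Hspa8 and the mitochondrial Hspd1 differed little in FPKM, although this depended on the scaling, as given below. At least 2-fold lower on the scale of log2(FPKM + 1) were 2 of the 10 members in Ly6Clo monocytes, Hspa1a and Hspa1b, beside 11.1% of expressed genes, and 1 of 10 in Ly6Chi monocytes, Hspa1a, beside 4.56%. At least 2-fold higher were 0 of 10 members in either subset, beside 8.97% of expressed genes in Ly6Clo and 2.65% in Ly6Chi monocytes. Counts of 0 to 2 among 10 members are near those shares, and nothing particular to the chaperones is read from them. The median log2 ratio of the members was -0.19 in Ly6Clo and -0.10 in Ly6Chi monocytes, against 0.02 and 0.00 over all expressed genes. In each subset 4 members were higher and 6 lower. The added 1 understates the differences of genes with low FPKM.

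Hspa1a encodes the main stress-inducible HSP70 and lies at chr17:34969359-34972156 on the minus strand. Its FPKM was 13.8 in control Ly6Clo, 12.1 in control Ly6Chi, 2.89 in RBP-J-deficient Ly6Clo and 4.62 in RBP-J-deficient Ly6Chi monocytes. Both control libraries lay above both RBP-J-deficient libraries. The log2 ratio was -1.92 in Ly6Clo and -1.23 in Ly6Chi monocytes, and 1.67% and 2.25% of expressed genes had a lower ratio.

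Hspa1b, its near-identical neighbour at chr17:34956429-34959238, had an FPKM of 1.67 in control Ly6Clo, 1.98 in control Ly6Chi, 0.294 in RBP-J-deficient Ly6Clo and 0.877 in RBP-J-deficient Ly6Chi monocytes. The control libraries were again the higher ones, and both RBP-J-deficient values were under 1. The log2 ratio was -1.04 in Ly6Clo and -0.67 in Ly6Chi monocytes on the log2(FPKM + 1) scale, whereas the plain FPKM in Ly6Clo monocytes was 5.67-fold lower. Of the 50-base windows of the Hspa1b transcript, 62.3% also occur in Hspa1a, so how fragments were divided between the genes is uncertain. Their sum depends less on that division, although the transcripts differ in length (2967 and 2803 bases) and some Hspa1a windows also occur in genes other than Hspa1b (66.3% in any other gene, 58.8% in Hspa1b). The sum was 15.4 in control Ly6Clo, 14.1 in control Ly6Chi, 3.19 in RBP-J-deficient Ly6Clo and 5.50 in RBP-J-deficient Ly6Chi monocytes. The log2 ratio of the sum was -1.97 in Ly6Clo and -1.22 in Ly6Chi monocytes.

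Set against Hspa8 within each library, the inducible pair amounted to 0.942% of Hspa8 in control Ly6Clo and 0.641% in control Ly6Chi monocytes, but 0.198% and 0.282% in the RBP-J-deficient Ly6Clo and Ly6Chi monocytes. Both RBP-J-deficient ratios lay below both control ratios. Scaling a library does not change this ratio, but the GC trend described below bears on it, as it was -0.51 at Hspa1a and 0.27 at Hspa8 in Ly6Clo monocytes and -0.26 and 0.12 in Ly6Chi monocytes. Hspa8 itself, at chr9:40801276-40805202, was 1637 in control against 1606 in RBP-J-deficient Ly6Clo monocytes and 2204 and 1952 in Ly6Chi monocytes, log2 ratios of -0.027 and -0.17. Rescaled to TPM, which is explained below, these ratios were -0.33 and -0.28. With the GC trend subtracted they were -0.30 and -0.30. The transcript shares 74.8% of its 50-base windows with other annotated genes, mostly with the pseudogene Gm15459, which has no row in the table.

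Hspa5 encodes BiP, the HSP70 of the ER, and lies at chr2:34772090-34776529. Its FPKM was 463.1 in control against 279.0 in RBP-J-deficient Ly6Clo monocytes, and 448.6 and 331.7 in Ly6Chi monocytes. The control values were close to each other and above both RBP-J-deficient values. The log2 ratio was -0.73 in Ly6Clo and -0.43 in Ly6Chi monocytes, inside 2-fold, although it was -1.03 in Ly6Clo monocytes with TPM. None of its 50-base windows occur in another annotated gene.

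The HSP90 genes went the other way. Hsp90aa1, the more inducible alpha form at chr12:110691036-110696395, was 160.2 in control against 263.8 in RBP-J-deficient Ly6Clo monocytes, and 80.6 and 108.0 in Ly6Chi monocytes. Hsp90ab1, the constitutive beta form at chr17:45567778-45573261, was 350.1 and 512.4 in Ly6Clo monocytes and 206.6 and 266.5 in Ly6Chi monocytes. For both genes the RBP-J-deficient library was the higher within each subset, and the 2 Ly6Clo libraries lay above the 2 Ly6Chi libraries. The log2 ratios were 0.72 and 0.42 for Hsp90aa1 and 0.55 and 0.37 for Hsp90ab1, in Ly6Clo and Ly6Chi monocytes, so that between 75.6% and 82.2% of expressed genes had a lower ratio. With TPM the ratios were 0.41 and 0.32 for Hsp90aa1 and 0.24 and 0.26 for Hsp90ab1. The FPKM of Hsp90aa1 divided by that of Hsp90ab1 ranged only from 0.390 to 0.515 over the 4 libraries. Hsp90aa1 shares 58.5% of its 50-base windows with other annotated genes, against 4.49% for Hsp90ab1.

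Among the HSP70 partners, Hsph1, the HSP110 exchange factor at chr5:149616843-149636498, was 20.4 in control against 15.8 in RBP-J-deficient Ly6Clo monocytes, and 14.0 and 9.69 in Ly6Chi monocytes. RBP-J-deficient monocytes had the lower level in both subsets, at -0.35 and -0.49. Dnajb1, the HSP40 gene at chr8:83608175-83612653, was 67.6 in control against 45.3 in RBP-J-deficient Ly6Clo monocytes, and 53.1 and 53.9 in Ly6Chi monocytes. Its log2 ratio was -0.57 in Ly6Clo but 0.022 in Ly6Chi monocytes, the latter turning to -0.08 when FPKM was rescaled to TPM, which gives every library the same sum over transcripts.

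The mitochondrial chaperonin genes are transcribed away from each other, Hspd1 at chr1:55077833-55088243 and Hspe1 at chr1:55088148-55091317. Hspd1, for HSP60, was 62.4 in control against 65.7 in RBP-J-deficient Ly6Clo monocytes, and 55.1 and 54.2 in Ly6Chi monocytes. On a log scale these 4 values were the closest together of any member's. The log2 ratio of 0.074 in Ly6Clo monocytes (-0.024 in Ly6Chi) turned to -0.23 with TPM and to -0.14 with the GC trend subtracted. Hspe1, for HSP10, was 71.0 in control against 98.9 in RBP-J-deficient Ly6Clo monocytes, and 102.8 and 120.5 in Ly6Chi monocytes, log2 ratios of 0.47 and 0.23. The Hspe1 level divided by that of Hspd1 was therefore not constant, at 1.14 in control Ly6Clo, 1.86 in control Ly6Chi, 1.51 in RBP-J-deficient Ly6Clo and 2.22 in RBP-J-deficient Ly6Chi monocytes. Each transcript shares 44.8% of its 50-base windows with other annotated genes.

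Over the 2 genotype comparisons, which share no library, 8 of the 10 members had the same sign, 3 higher and 5 lower, against 69.5% of the 10240 expressed genes. Dnajb1 and Hspd1 were the other two. Rescaling to TPM lowered the ratio of all 10 members in both comparisons, while the median over expressed genes moved by -0.24 in Ly6Clo and -0.09 in Ly6Chi monocytes. Apart from Dnajb1 in Ly6Chi and Hspd1 in Ly6Clo monocytes, no member changed sign in the genotype comparisons under TPM or the other alternatives.

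**Figure D2:**
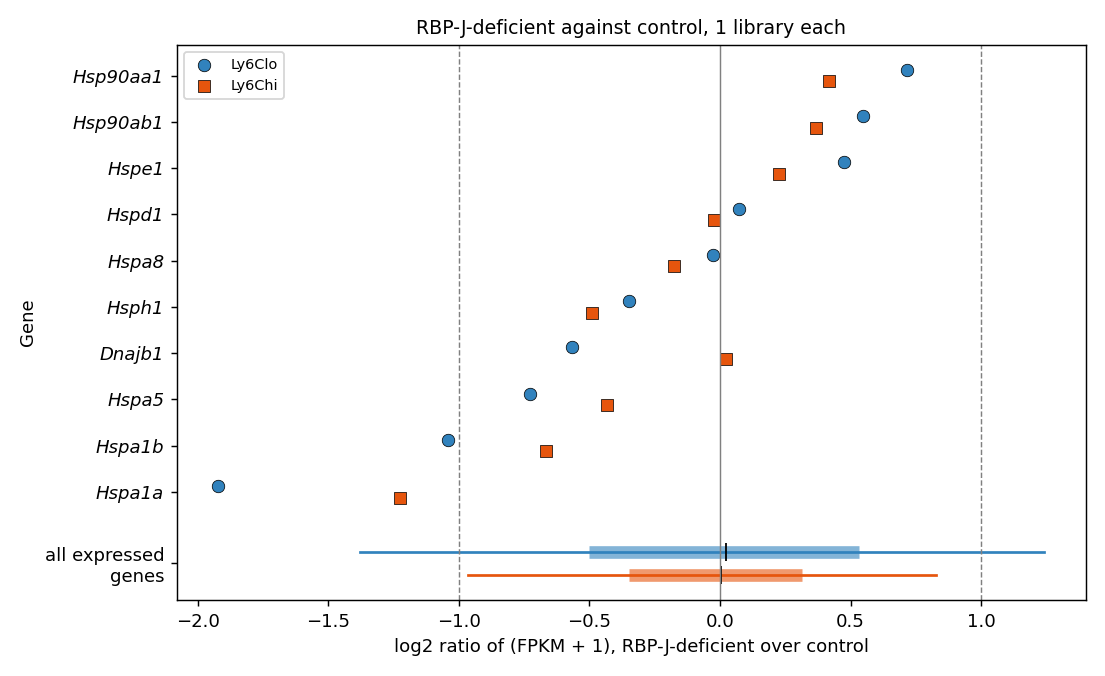
Log2 ratio of (FPKM + 1) between RBP-J-deficient and control libraries for each chaperone gene in Ly6Clo (circles) and Ly6Chi (squares) monocytes, with dashed lines at 2-fold. The bars at the bottom give the median, the middle 50% and the 5th to 95th percentile of 10240 expressed genes, and Hspa1a at -1.92 and -1.23 lies outside that range in both subsets.

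The log2 ratios also varied with the GC content of the transcripts. The trend fitted over 6086 genes was 0.46 at 40% GC and -0.54 at 60% GC in Ly6Clo monocytes, and 0.20 and -0.28 in Ly6Chi monocytes. Hspa1a and Hspa1b have the most GC-rich transcripts of the members, at 58.9% and 58.1%, and Hsp90aa1 has the least GC-rich, at 43.7%. With the trend subtracted, Hspa1a was at -1.41 in Ly6Clo and -0.96 in Ly6Chi monocytes, and Hspa1b was at -0.56 and -0.43. Hspa5, whose transcript has 45.6% GC, moved the other way to -1.02 and -0.57, past 2-fold in Ly6Clo monocytes. Hsp90aa1 was at 0.36 and 0.27 after subtraction and Hsp90ab1 at 0.57 and 0.38. The directions of the inducible HSP70 pair, Hspa5 and both HSP90 genes were the same in both subsets before and after subtraction, and whether the GC trend came from the libraries or from the cells was not tested.

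**Figure D3:**
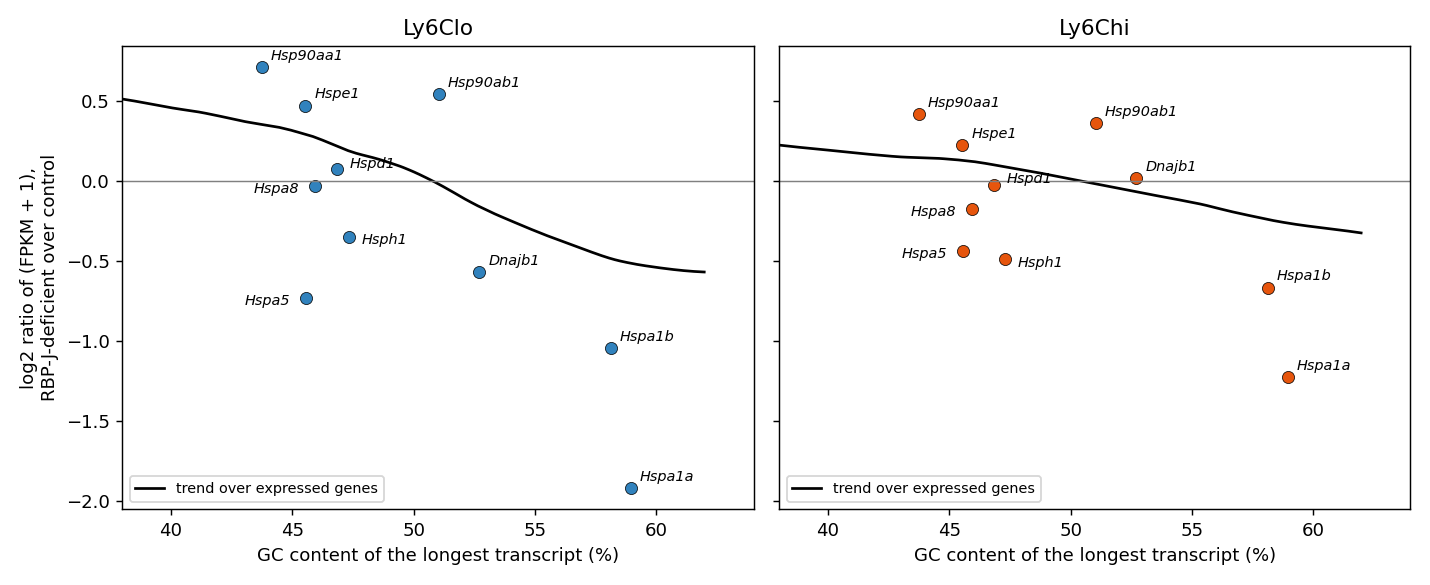
Log2 ratio of (FPKM + 1) between RBP-J-deficient and control libraries for each chaperone gene against the GC content (%) of its longest annotated transcript, in Ly6Clo (left) and Ly6Chi (right) monocytes. The line is the trend fitted on 6086 genes whose FPKM averaged 5 or more, and Hspa1a, at 58.9% GC, lies below it in both panels.

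Markers of other cells differed between the libraries as well. The summed FPKM of 3 erythroid genes was 1189 in control Ly6Clo, mostly Hba-a2 at 1171, against 145.6 in RBP-J-deficient Ly6Clo, 148.9 in control Ly6Chi and 246.3 in RBP-J-deficient Ly6Chi monocytes. This difference rested on Hba-a2, since Hbb-bs had its lowest value, 11.1, in control Ly6Clo and was at 54.6 in RBP-J-deficient Ly6Clo, 32.7 in control Ly6Chi and 59.2 in RBP-J-deficient Ly6Chi monocytes. The B cell sum of 6 genes was 68.0 and 102.1 in the control and RBP-J-deficient Ly6Clo libraries and 26.2 and 47.2 in the Ly6Chi libraries, with Cd79b the largest part and Pax5 listed at 0 in 3 libraries. Neutrophil markers, of which 5 of 6 were found, summed to 237.9 and 162.3 in Ly6Clo and 1327 and 1039 in Ly6Chi libraries, in the same order. S100a8 was the largest part of each neutrophil sum, at 1085 and 861.4 in the Ly6Chi libraries, whereas Retnlg, Cxcr2 and Camp were each at most 35.1. In that order again, 4 platelet markers summed to 121.5 and 121.1 in Ly6Clo and 340.2 and 285.1 in Ly6Chi libraries. The part of these cells in the chaperone values was not tested.

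Genes around the 10 chaperones were described from lists of their helpers, of heat shock factors with small heat shock proteins, of ER, mitochondrial and TRiC chaperones, and of immediate early genes, which like Hspa1a respond within minutes to handling. Among 23 expressed helpers of HSP70 and HSP90 in the cytosol, 1 was at least 2-fold higher and 2 were at least 2-fold lower in RBP-J-deficient Ly6Clo monocytes, with a median of -0.07, and in Ly6Chi monocytes these counts were 0 and 2 with a median of -0.13. The shares of all expressed genes past 2-fold, against which the counts of each list below are to be read, were 8.97% higher and 11.1% lower in Ly6Clo and 2.65% higher and 4.56% lower in Ly6Chi monocytes, and 1 and 2 of 23 are 4.35% and 8.70%. The higher one was Ptges3, for the HSP90 cochaperone p23, at 107.8 in control against 309.9 in RBP-J-deficient Ly6Clo monocytes. It was also higher in Ly6Chi monocytes, at 0.67 on the log2 scale. Hspbp1, an exchange factor of HSP70, was lower at -1.24 in Ly6Clo and -0.83 in Ly6Chi monocytes. Fkbp5 and Fkbp4 encode HSP90-bound immunophilins. Fkbp5, named after its values were seen because it is the other gene in both counts, was at -1.19 and -1.06, with FPKM of at most 2.45. Fkbp4 was lower at -0.97 in Ly6Clo monocytes, and Bag1, for another HSP70 exchange factor, was lower at -1.36 in Ly6Chi monocytes. The J-domain gene Dnajb6 was higher at 0.91 and 0.42.

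Of 7 expressed genes for heat shock factors and small heat shock proteins, 2 were at least 2-fold higher and 1 lower in Ly6Clo monocytes, and 2 were higher and 0 lower in Ly6Chi monocytes, with medians of 0.75 and 0.30. Those counts in Ly6Clo monocytes are 28.6% higher and 14.3% lower, beside 8.97% and 11.1% of expressed genes, and 28.6% higher in Ly6Chi monocytes, beside 2.65%, in a list of 7. Hspb1 and Hspb6 count as expressed only through 1 RBP-J-deficient library each, at 1.02 in Ly6Chi and 2.06 in Ly6Clo monocytes. The Ly6Clo median of 0.75 is the ratio of Hspb6, and Hspb1 is among the genes counted as higher in Ly6Chi. Nothing about the list is therefore read from these medians and shares. Hsf1, the factor that drives Hspa1a after heat, had an FPKM of 27.4 in control against 12.1 in RBP-J-deficient Ly6Clo monocytes, a log2 ratio of -1.12. In Ly6Chi monocytes the log2 ratio of Hsf1 was -0.12. The part of Hsf1 in the Hspa1a levels was not tested. Hsf2, a related factor, was 30.6 and 129.8 in Ly6Clo monocytes, a log2 ratio of 2.05, and 16.9 and 35.9 in Ly6Chi monocytes, a log2 ratio of 1.04. Cryab, for a small heat shock protein, was at 1.95 in Ly6Clo and -0.52 in Ly6Chi monocytes. Hspb1, for HSP27, was the other gene counted as higher in Ly6Chi monocytes, being listed at 0 in the control and at 1.02 in the RBP-J-deficient library. Hmox1, for heme oxygenase, was at 0.0036 in Ly6Clo monocytes, and Hsbp1, for a protein that binds HSF1, was at 0.41 in Ly6Chi monocytes.

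The 19 ER chaperone and unfolded protein response genes had medians of 0.05 and -0.14, with 1 higher and 1 lower in Ly6Clo and 1 higher and 0 lower in Ly6Chi monocytes. As shares of the list, each count of 1 is 5.26%, beside 8.97% higher and 11.1% lower among expressed genes in Ly6Clo and 2.65% higher in Ly6Chi monocytes. Xbp1, a transcription factor of that response, was 370.8 in control against 155.1 in RBP-J-deficient Ly6Clo monocytes, a log2 ratio of -1.25, and was at -0.53 in Ly6Chi monocytes. The disulfide isomerase gene P4hb was lower in both subsets, at -0.78 and -0.48. Canx, for the lectin chaperone calnexin, was higher in both, at 1.18 and 0.87. Ddit3, for the stress factor CHOP, was higher at 1.01 in Ly6Chi monocytes. Hsp90b1, for the ER form of HSP90, was 243.4 in control against 411.8 in RBP-J-deficient Ly6Clo monocytes, a log2 ratio of 0.76. In Ly6Chi monocytes it was 236.4 and 257.1, a log2 ratio of 0.12 that turned to -0.04 with the GC trend subtracted. A ratio of Hspa5 to Hsp90b1, chosen after the values were seen, was 1.90 in control Ly6Clo and 1.90 in control Ly6Chi, but 0.678 in RBP-J-deficient Ly6Clo and 1.29 in RBP-J-deficient Ly6Chi monocytes.

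Among 8 mitochondrial chaperone and protease genes, 0 were past 2-fold in Ly6Clo monocytes and 1, the protease gene Lonp1, was lower in Ly6Chi monocytes at -1.13, with medians of 0.07 and -0.08. The ends of this list in Ly6Clo monocytes were Clpx at 0.51, Grpel1 at 0.43, Trap1 at -0.25 and Dnaja3 at -0.51, and in Ly6Chi monocytes Clpx at 0.31, Afg3l2 at 0.22, Hspa9 at -0.38 and Lonp1. None of the 8 subunit genes of TRiC, the chaperonin for actin and tubulin, passed 2-fold in either subset, with medians of 0.13 and -0.05. Cct2 was highest at 0.89 and 0.37, followed by Cct5 at 0.54 in Ly6Clo and Cct3 at 0.04 in Ly6Chi monocytes. The lowest were Tcp1 at -0.14 and Cct4 at 0.05 in Ly6Clo, and Cct4 at -0.36 and Cct6a at -0.17 in Ly6Chi monocytes. With the GC trend subtracted, the Ly6Clo medians of the ER and TRiC lists turned to -0.14 and -0.15, and medians this near 0 are smaller than the TPM shift in that subset.

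Of 17 immediate early genes, 1 was at least 2-fold higher and 6 were lower in Ly6Clo monocytes, and 0 and 4 in Ly6Chi monocytes, with medians of -0.75 and -0.37. The lower genes were 35.3% of the list in Ly6Clo, beside 11.1% of expressed genes, and 23.5% in Ly6Chi monocytes, beside 4.56%, and the higher gene was 5.88%, beside 8.97%. Junb, an AP-1 subunit gene, was at -2.91 and -1.93 and Nr4a1, which Ly6Clo monocytes need for survival, at -3.22 in Ly6Clo and -0.23 in Ly6Chi monocytes. By flow cytometry and quantitative PCR, the paper found Nr4a1 in Ly6Clo monocytes not to differ between the genotypes, unlike these single libraries. Socs3, a cytokine signalling inhibitor, was at -2.25 in Ly6Clo and -1.47 in Ly6Chi monocytes. Jun at -1.77 and -1.02 and Zfp36 at -1.89 and -1.13 were also counted as lower in both subsets, and Ier3 at 1.01 was the gene counted as higher in Ly6Clo monocytes, all named after their values were seen. Klf4, for a monocyte transcription factor, was higher at 0.52 and 0.67, and so was Klf2, at 0.44 and 0.23. Atf3 was at 0.54 in Ly6Clo but -0.28 in Ly6Chi monocytes. With the GC trend subtracted, the medians of this list were -0.47 and -0.23. The low Hspa1a level of the RBP-J-deficient libraries thus stood beside a low median of immediate early genes in both subsets, and a common source of these differences was not tested. Between the subsets this list also passed 2-fold more often than expressed genes. In control Ly6Clo over Ly6Chi, 29.4% were lower, beside 7.75%, and 11.8% higher, beside 5.21%, with Hspa1a at 0.17. In RBP-J-deficient monocytes 41.2% were lower, beside 10.6%, and 11.8% higher, beside 8.41%, with Hspa1a at -0.53.

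**Figure D4:**
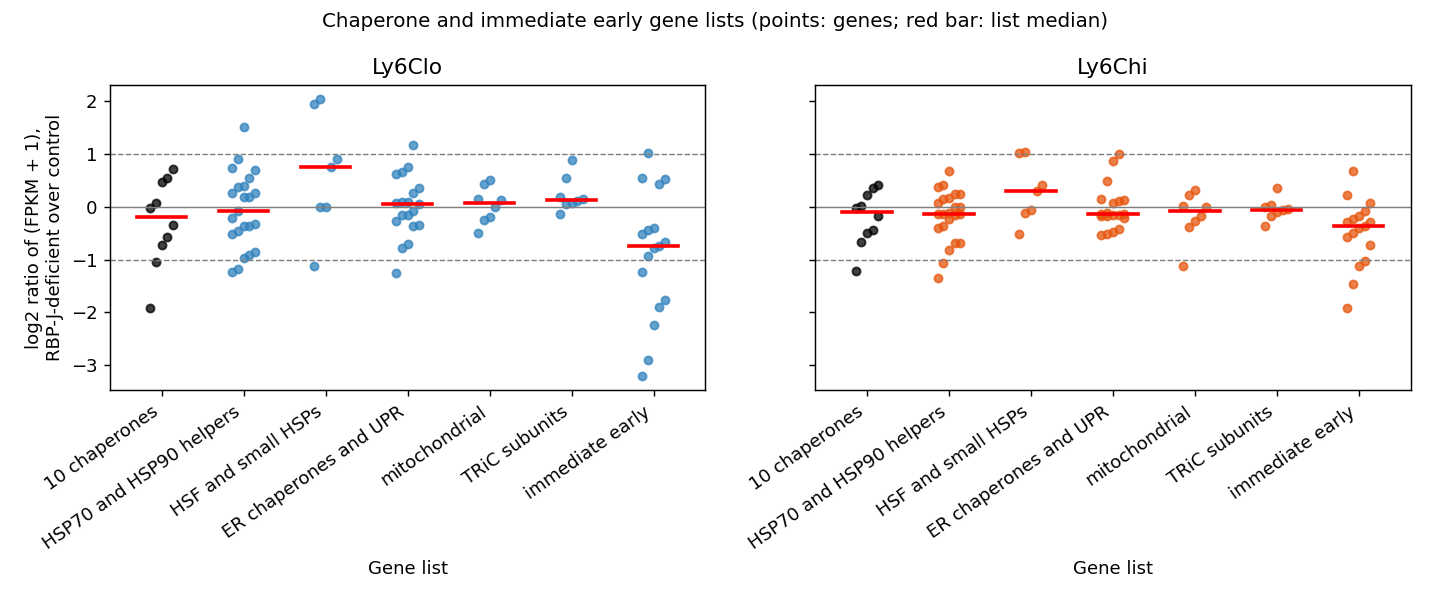
Log2 ratio of (FPKM + 1) between RBP-J-deficient and control libraries for the expressed genes of each list in Ly6Clo (left) and Ly6Chi (right) monocytes, with 1 point per gene, red bars at list medians and dashed lines at 2-fold. The immediate early list has the lowest medians, -0.75 and -0.37, while the 10 chaperones have medians of -0.19 and -0.10.

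The second comparison was that of Ly6Clo with Ly6Chi monocytes of the same genotype, which uses the same 4 libraries and is therefore not independent of the first. The HSP90 genes were the members with the highest ratios in both genotypes. In control monocytes 0 of 10 members were at least 2-fold higher in Ly6Clo, beside 5.21% of expressed genes, and 0 were at least 2-fold lower, beside 7.75%. In RBP-J-deficient monocytes 1 of 10, Hsp90aa1, was at least 2-fold higher, beside 8.41%, and 0 were lower, beside 10.6%. The medians of the members were 0.17 in control and -0.25 in RBP-J-deficient monocytes, against 0 and 0.02 over expressed genes.

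Hsp90aa1 had a log2 ratio of 0.98 in control against 1.28 in RBP-J-deficient monocytes, and Hsp90ab1 of 0.76 and 0.94, so that between 90.3% and 95.4% of expressed genes had a lower ratio. With the GC trend subtracted, Hsp90aa1 was at 0.88 and 0.984 and Hsp90ab1 at 0.77 and 0.998, so that their order turned in RBP-J-deficient monocytes. Hsph1 was also higher in Ly6Clo monocytes of both genotypes, at 0.51 and 0.65, and Hspd1 was at 0.18 and 0.27. Hspe1, at -0.53 and -0.28, and Hspa8, at -0.43 and -0.28, were lower in Ly6Clo monocytes of both genotypes. Hspa1a was at 0.17 in control and -0.53 in RBP-J-deficient monocytes, Dnajb1 at 0.34 and -0.25, and Hspa5 at 0.05 and -0.25, the first of these Hspa5 values turning to -0.04 with the GC trend subtracted. Hspa1b was at -0.16 and -0.54.

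**Figure D5:**
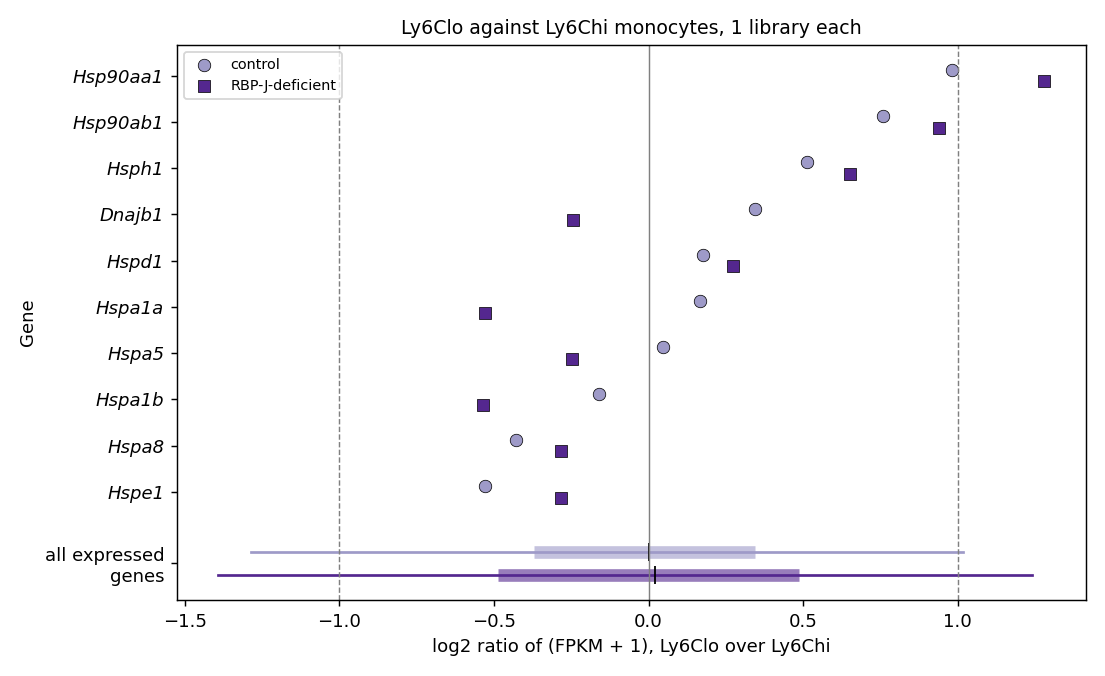
Log2 ratio of (FPKM + 1), Ly6Clo over Ly6Chi, of each chaperone gene in control (circles) and RBP-J-deficient (squares) mice, with dashed lines at 2-fold. The bars at the bottom give the median, the middle 50% and the 5th to 95th percentile of 10240 expressed genes, and Hsp90aa1 at 0.98 and 1.28 has the highest ratio of the members in both genotypes before the GC trend is subtracted.

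Centred over the 4 libraries, the mean log2(FPKM + 1) of the 10 members was 0.21 in control Ly6Clo, 0.03 in control Ly6Chi, -0.07 in RBP-J-deficient Ly6Clo and -0.17 in RBP-J-deficient Ly6Chi monocytes. The genes outside the members nearest to this profile, by Euclidean distance among 6395 genes whose FPKM averaged 5 or more, were Elavl1 at 0.0262, Yeats4 at 0.0475, Cyb5r1 at 0.0486, Ubxn8 at 0.0503 and Sf3b2 at 0.0574, against a median distance of 0.787. With 4 libraries many genes come near any profile. The mean also hid opposite profiles, since Hspa1a was centred at -1.05 and Hsp90aa1 at 0.92 in the same RBP-J-deficient Ly6Clo library.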

How the data were processed

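The authors deposited FPKM values per gene for 4 libraries of paired-end reads, in the layout of Cuffdiff, for all 6 pairs of libraries. The submitters' processing notes name CASAVA 1.8, TopHat2 2.1.0, Cufflinks 2.2.1 and the build mm10. The deposited table also holds the authors' fold changes, test statistics, p-values and q-values, which were not used. Values of a symbol were summed within a pair and the median over pairs was taken. Pairs differed by over 0.1% for 19 values of a gene in a library, 0 of them of a member.

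Ratios were log2 of (FPKM + 1), with 2-fold as a descriptive threshold among genes that reached an FPKM of 1 in any library. The GC trend was a lowess fit (fraction 0.3, 3 iterations) against the GC content of the longest transcript of a gene, coding or not, in GENCODE M21. A GC content was found for 94.9% of expressed genes and for all 10 members. Shared sequence was the share of the 50-base windows of a member's longest coding transcript found in another annotated gene. The log2 ratio and the GC subtraction were tested on simulated data, and the other procedures were not. The simulated GC trend was a straight line, and the simulated scatter was smaller than that of the real ratios. Promoter windows and positions are from RefSeq on GRCm38, 1-based. Python 3.11.15, numpy 2.4.6, pandas 2.3.3 and statsmodels 0.14.6 were used.

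The members, lists and alternatives were chosen with earlier results of these data known. Named genes are the members, Rbpj, cell type markers, the 5 genes nearest to the members' profile and, per list and genotype comparison, the 2 highest and 2 lowest ratios among genes that reached an FPKM of 5 in either library. Hsp90b1 was set against Hspa5 after its values were seen, and a few genes behind small counts or a median were named the same way. Alternatives changed the pseudocount, scaling, filter and threshold, summed Hspa1a with Hspa1b, or subtracted the GC trend.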

Additional observations from a re-analysis of the deposited data

Results flagged for a closer look

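Dnajb1 and Hspd1 had opposite signs in the 2 subsets when RBP-J-deficient was compared with control, which drew attention to them. The log2 ratio of Dnajb1, the HSP40 gene, was -0.57 in Ly6Clo and 0.022 in Ly6Chi monocytes, and that of Hspd1, for mitochondrial HSP60, was 0.074 in Ly6Clo and -0.024 in Ly6Chi monocytes. Whether the subsets differ was not tested, as each group is a single library, and 3 of these 4 values lie within 0.1 of 0.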

How the results depend on the processing

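Over 9 alternatives, 77 of 100 recomputed counts and medians stayed within 1.5 times or within 0.1 of the reported value, and 23 moved further. The count lower in Ly6Clo monocytes was 3 with TPM, where Hspa5 (-1.03) joined Hspa1a and Hspa1b, and 2 with the GC trend subtracted, then Hspa1a and Hspa5 (-1.02) and not Hspa1b (-0.56). Hspa1b was not among the genes on which that trend was fitted. In Ly6Clo monocytes (RBP-J-deficient over control) the count of members at least 2-fold lower was 1 with a pseudocount of 5, with an FPKM of at least 1 in both libraries or with Hspa1a and Hspa1b summed, and 0 at the fold thresholds of 5.7 and 0.2. The count higher was 1 at 1.5-fold. The median was -0.49 with TPM, -0.36 with the GC trend subtracted and -0.027 with the FPKM filter or the summed pair. In Ly6Chi monocytes the count lower was 2 with a pseudocount of 0.1 or at 1.5-fold, and 0 with a pseudocount of 5, at 5.7 and 0.2 or with the GC trend subtracted, and the median was -0.20 with TPM and -0.21 with the GC trend subtracted. For Ly6Clo over Ly6Chi, the count higher at 1.5-fold was 2 in control monocytes. In RBP-J-deficient monocytes it was 3 at 1.5-fold and 0 at 5.7 and 0.2 or with the GC trend subtracted. There the count lower was 1 with a pseudocount of 0.1, and the median was -0.46 with TPM and -0.11 with the GC trend subtracted. Changes with the threshold, filter or sum follow from their construction, and for the GC trend the cause was not tested. Of 269 values of single members, 73 moved by over 0.1 or changed sign, and the 4 that changed sign had reported ratios of at most 0.074. Not all of the 269 could move. With the FPKM filter or the summed pair, a single member kept its reported ratio by construction. Median centring shifted ratios by at most 0.023, so it could not move a value by 0.1.

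Depth is unknown, so Hspa1b at an FPKM under 1 has no interval. Leaving out a replicate has no meaning with 1 library per group. No paired analysis was possible because the groups compared share fewer than 2 replicate numbers. A fit of genotype with subset as a block was not made.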
